A study of Homo sapiens with 12 samples.

Results

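The mRNA of H1299 cells treated with siRNAs against EIF3G was compared with that of cells given a control siRNA, in RNA from cleared lysate before polysomes were separated (input RNA). H1299 is a human non-small-cell lung cancer line. The 2 groups were siEIF3G input, in which an equal molar mix of 2 siRNAs was transfected, and siCtrl input, in which 1 control siRNA was transfected, with 3 libraries each. Cells of both groups were lysed 72 h after transfection, and both carried no other label of genotype or treatment. The other 6 of the 12 libraries of the study hold polysomal RNA of the same treatments, and they enter here only through the estimate of the spread between libraries. The labels do not say whether the 3 libraries of a group came from separate cultures, so the p-values cover the spread among these libraries alone, and that spread may be technical. Because the siRNAs were mixed, an effect of either one alone cannot be told apart.

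Levels were given as TPM (transcripts per 1000000 transcripts), the share that a gene's transcripts take of a library, corrected for transcript length. Of the 16172 genes in the table, 11048 averaged 1 TPM or more in the 6 input libraries and were tested. A difference is siEIF3G minus siCtrl on the scale log2(TPM + 1), which understates the change of low genes. It was tested with limma over all 11048 genes, and a gene was called at a Benjamini-Hochberg adjusted p under 0.05.

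EIF3G is a subunit of eIF3, the large complex that binds the small ribosomal subunit and brings together mRNA, initiator tRNA and the other initiation factors. EIF3G carries an RNA recognition motif and sits on the EIF3B and EIF3I side of the complex, where it contacts the mRNA entry channel. A drop in initiation can leave the level of an mRNA as it is, so the input libraries show changes in mRNA abundance and not in translation.

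The siRNA sequences are given because they define the perturbation. They are printed 5′ to 3′ in the DNA letters of the labels, which do not state the strand that acts as guide.
siEIF3G-4: gaacaaactcaagggccagaa
siEIF3G-5: gaggtcatcaacggaaacata
siCtrl: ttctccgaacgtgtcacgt
Whether these sequences match transcripts other than EIF3G was not tested, since no transcript sequences were used here.

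The 6 input libraries had between 14089 and 14659 genes above 0 TPM. The number of reads is unknown because TPM keep no depth. In 2 libraries, siCtrl input 1 and siEIF3G input 2, the levels across genes were nearer to the polysomal libraries of the same siRNA (mean Pearson r 0.959 and 0.960) than to their own group (0.926 and 0.933). MTRNR2L2 is a nuclear relative of mitochondrial 16S rRNA. It was at 1258 to 2735 TPM in the input libraries and at 5.41 to 13.1 TPM in the polysomal ones. These 2 libraries had the lowest input values, 1258 and 1581 TPM, yet lay far above any polysomal library. Whether they hold some polysomal RNA was not tested. A principal axis of how libraries deviate from their group's mean held 91.0% of the within-group variance, and it placed siCtrl input 1 at 0.92 and siEIF3G input 2 at 0.67, with the other 4 libraries below 0. Of these 4, siCtrl input 3 lay at -0.66, nearly as far from 0 as siEIF3G input 2. Deviations within a group sum to 0, so 1 high library puts others of its group below 0. The libraries siCtrl input 1 and siEIF3G input 2 had the fewest genes at 1 TPM or more, 9427 and 9722, against up to 11477 in the others. Results below are therefore also given without these 2 libraries, as 2 against 2, which keeps siCtrl input 3. The part that the departure of these libraries plays in any single result was not tested.

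**Figure D1:**
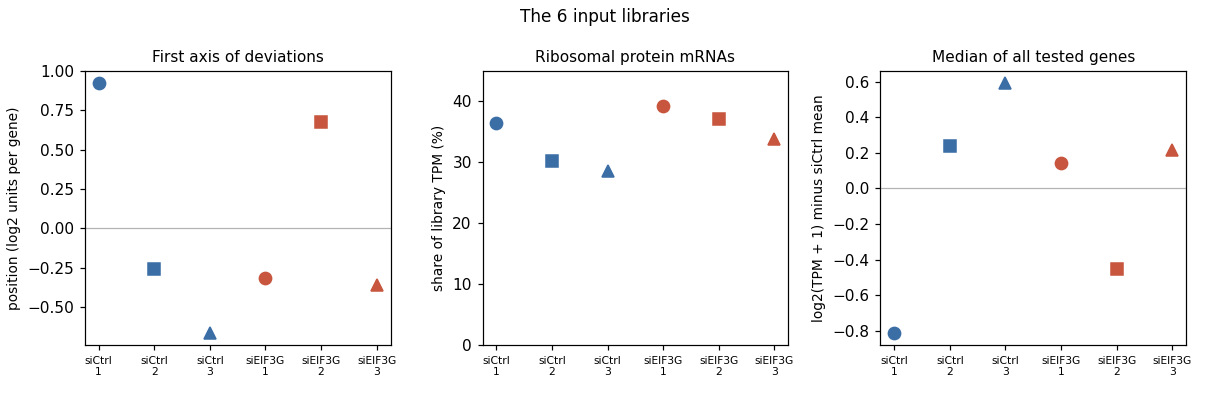
The 3 panels show, for each of the 6 input libraries (blue siCtrl, red siEIF3G; circle, square and triangle for replicates 1, 2 and 3), the position on the first axis of deviations in log2 units, the share of TPM taken by ribosomal protein mRNAs in percent, and the median over all tested genes of log2(TPM + 1) minus the siCtrl mean. The circle of siCtrl and the square of siEIF3G stand apart at 0.92 and 0.67 on the first axis, and their medians are -0.81 and -0.45. The triangle of siCtrl lies at the other end, at -0.66, with a median of 0.59.

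The labelled cell line was checked against marker genes. VIM, the intermediate filament of mesenchymal cells, had a mean of 1957 TPM. The other mesenchymal markers were far lower and varied. AXL was at 106 TPM, CD44 at 72.9 TPM and TWIST2 at 19.5 TPM, while CDH2 was at 3.77 TPM, FN1 at 4.21 TPM and SNAI2 at 0. The epithelial junction genes CLDN1 and TJP1 were at 16.4 and 10.6 TPM, but CLDN3 was at 0.692 TPM and CLDN7 at 0.085 TPM. The epithelial genes ESRP1, ESRP2, ELF3, ST14 and RAB25 were all below 1 TPM, so each list was mixed. The epithelial adhesion genes CDH1 and EPCAM were at 0.01 and 0.127 TPM, while the simple-epithelium keratins KRT18 and KRT8 were at 587 and 151 TPM. Of 8 lung epithelium markers in the table none reached a mean of 1 TPM, and the surfactant genes SFTPA2 and SFTPB and the water channel AQP5 were at 0 in all 6 libraries. Of 8 blood and vessel markers only CD68, a lysosomal protein not limited to macrophages, reached 1 TPM (83.9), and of 8 fibroblast and muscle markers only ACTA2 did (4.86). The summed level of the blood and vessel markers was 70.3 to 92.6 TPM in siCtrl and 68.4 to 108 TPM in siEIF3G libraries.

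EIF3G mRNA fell to 6.16% of its control level. It was at 1158, 1092 and 878 TPM in the siCtrl libraries 1, 2 and 3 and at 60.7, 84.7 and 47.3 TPM in the siEIF3G libraries. The 3 knockdown libraries all lay far below the 3 controls, and the spread within either group was small beside the gap. The group means were 1043 ± 147 and 64.3 ± 18.95 TPM (SD, n = 3 libraries each), 16.2-fold lower, with a log2 difference of -4.03 (SE 0.29, limma adjusted p = 3.31e-05). Without the 2 libraries that stood apart it was -4.17. Rescaled by size factors, the difference of -3.98 no longer passed (limma adjusted p = 0.0668). In RNA from many cells at once, a lower level in every cell and a loss in only some of the cells cannot be told apart.

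The genes next to EIF3G on chromosome 19 had differences near 0 or above. Of the 10 nearest genes 8 were tested, and their log2 differences, all positive, ran from 0.01 for the lipid receptor gene S1PR2 to 0.51 for PPAN, a ribosome assembly factor. DNMT1, the maintenance DNA methyltransferase, differed by 0.05 (SE 0.62), the mitochondrial ribosomal protein gene MRPL4 by 0.02 (SE 0.23) and the antiviral factor gene SHFL by 0.02 (SE 0.30). Without the 2 libraries that stood apart 5 of the 8 were negative, the lowest being DNMT1 at -0.22. PPAN was at 49.1, 56.2 and 50.3 TPM in siCtrl and at 61.8, 74.7 and 88.1 TPM in siEIF3G libraries, so its groups did not overlap. Reads of PPAN and of the readthrough gene PPAN-P2RY11 overlap and can be split by the counting, so this value is uncertain.

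Beside EIF3G, 1 other gene was called. THOP1, the metallopeptidase thimet oligopeptidase, which cleaves short cytosolic peptides, was at 113, 101 and 80.6 TPM in siCtrl and at 23.0, 26.6 and 19.8 TPM in siEIF3G libraries. Every knockdown library was below every control library, and the group means were 4.25-fold apart (log2 difference -2.04, SE 0.28, limma adjusted p = 0.0303). THOP1 is also on chromosome 19. The size of its difference was stable, from -2.28 to -1.87 over the alternatives, but the call was not: its limma adjusted p ranged from 0.0156 to 1.00. The call ended without any one of the 6 input libraries, and also without siCtrl polysomal 1 or 2 or siEIF3G polysomal 1, with adjusted p from 0.0542 to 0.301.

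Across all tested genes the differences were small against the spread of the libraries. Limma called 0 genes higher and 2 lower, 0.0181% of those tested. At an unadjusted p under 0.05 were 150 genes (49 higher and 101 lower), where 5% of the tested genes is 552.4. The median log2 difference was -0.06, the quartiles were -0.25 and 0.13, and the median SE was 0.43. A positive difference was found for 42.2% of the genes. Only 60 genes differed by more than 1 on the log2 scale (13 higher and 47 lower). Without the 2 libraries that stood apart the median of all genes was -0.21, 24.4% were positive and 562 genes had an unadjusted p under 0.05. For the gene groups below, a median "relative to all genes" (a relative median) is therefore the list's median minus that of all tested genes. The shares over all tested genes (positive, or without overlap in either direction as given next) are the background of every list. Of 42 lists with at least 5 tested members, 24 had a relative median that turned sign when 1 input library was left out.

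**Figure D2:**
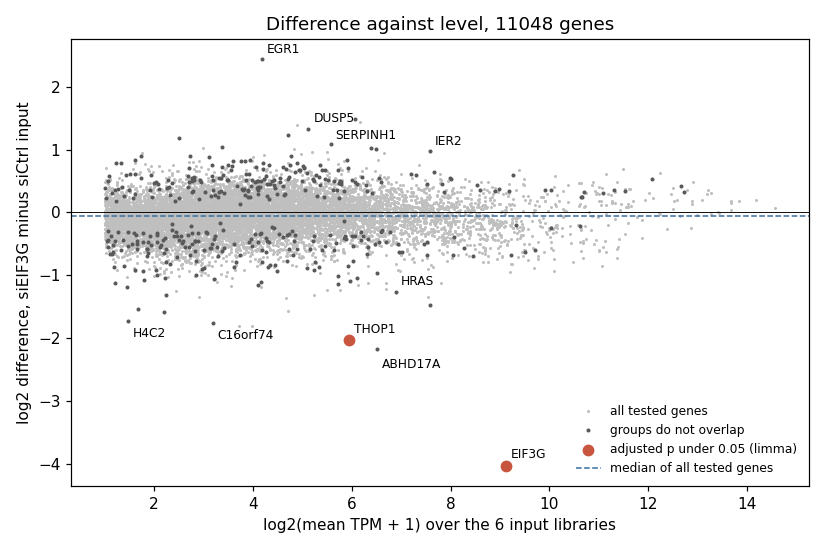
Each point is 1 of the 11048 tested genes, with its mean level as log2(TPM + 1) over the 6 input libraries on the horizontal axis and its log2 difference, siEIF3G minus siCtrl input, on the vertical axis. Red points passed the limma threshold, dark points have groups that do not overlap, and the dashed line is the median of -0.06; EIF3G at -4.03 and THOP1 at -2.04 are the only red points, and EGR1 at 2.44 is the highest.

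A second description counts genes whose groups do not overlap, with all 3 libraries of one group above all 3 of the other. This was so for 201 genes that were higher with EIF3G siRNA (1.82%) and for 192 that were lower (1.74%). Of the 60 genes with a difference over 1, 30 had groups that did not overlap (9 higher and 21 lower). The 15 genes of smallest p on either side, among those with a mean of at least 5 TPM, are described next. None of them passed the threshold except EIF3G and THOP1, and the next smallest limma adjusted p was 0.155. All 30 kept their direction without the 2 libraries that stood apart.

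Among the lower genes ABHD17A had the largest difference after EIF3G. It encodes a depalmitoylase that removes lipid from membrane-bound proteins such as N-Ras, and was at 196, 141 and 107 TPM in siCtrl against 34.0, 45.5 and 19.2 TPM in siEIF3G libraries. No library of either group came near the other, with a 4.50-fold gap between the means (log2 difference -2.17, SE 0.36, limma adjusted p = 0.155). HRAS, the small GTPase upstream of RAF and ERK, was at 207, 166 and 125 TPM in siCtrl and at 63.6, 91.5 and 52.3 TPM in siEIF3G libraries, 2.40-fold lower (-1.26, SE 0.27, limma adjusted p = 0.687). In both genes siCtrl 1 and siEIF3G 2 were the highest libraries of their groups.

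C16orf74, a small protein that binds calcineurin, was at 14.8, 12.4 and 11.9 TPM in siCtrl and at 3.15, 3.99 and 2.43 TPM in siEIF3G libraries, 4.09-fold lower. The aldehyde reductase AKR1A1 was at 95.3, 99.9 and 79.8 TPM against 35.9, 58.4 and 40.6 TPM. The calcium-binding protein calretinin (CALB2) was at 53.5, 88.0 and 73.4 TPM against 25.9, 34.2 and 34.9 TPM. These 3 genes had SDs well below the gap between their means, with log2 differences of -1.76, -1.04 and -1.14.

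The other 8 genes of the lower group had means 1.86-fold to 2.47-fold lower. MXD3, a MAX partner of the MYC network, was at 69.5 ± 24.8 against 33.5 ± 9.92 TPM (SD, n = 3 libraries each). CTNNBIP1, an inhibitor of beta-catenin binding to TCF, was at 47.7 ± 4.72 against 25.4 ± 7.12 TPM. SPNS1, a lysosomal phospholipid transporter, was at 120 ± 28.2 against 61.2 ± 13.7 TPM. The GTPase-activating protein gene SYDE1 (-0.88), the endoplasmic reticulum degradation factor gene DERL2 (-1.06), the kinase-like gene STK40 (-0.94), the membrane protein gene MXRA7 (-1.10) and C19orf33 (-1.48) complete the group. C19orf33 had the widest spread, with 405, 237 and 169 TPM in siCtrl and 135, 159 and 33.8 TPM in siEIF3G libraries. Of the 15 lower genes 5 are on chromosome 19, and 1 of these 5 is EIF3G, the siRNA target itself. Chromosome 19 holds 7.92% of the tested genes with a known position, and the 2 shares were not compared by a test. None of the 15 is a member of a gene list used here.

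**Figure D3:**
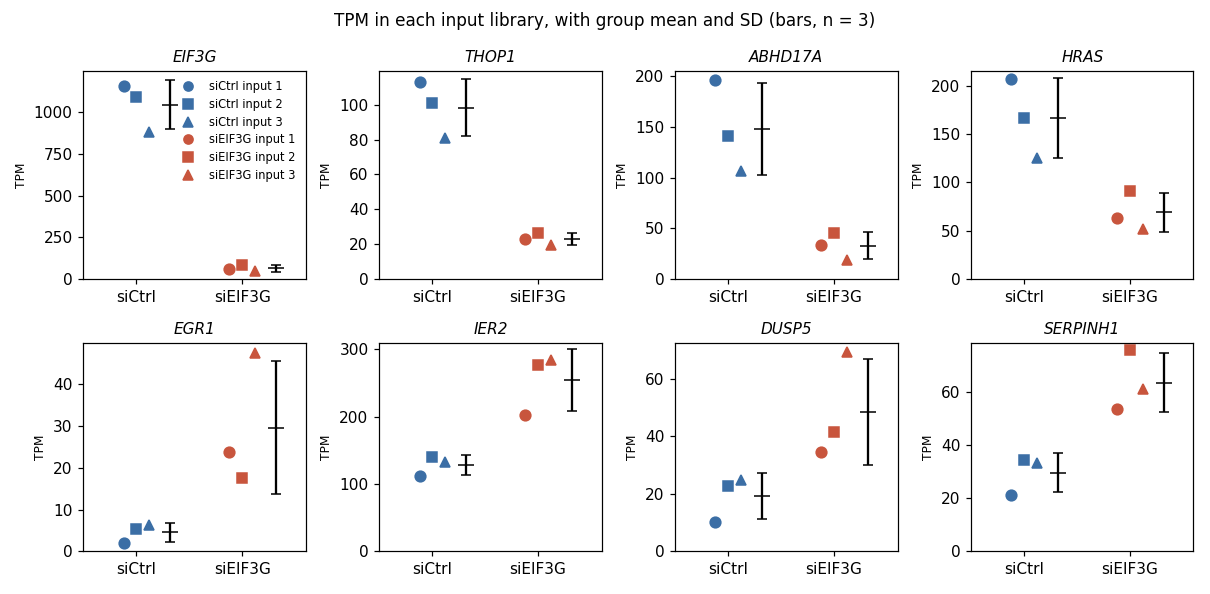
TPM of EIF3G, THOP1, ABHD17A and HRAS (upper row) and EGR1, IER2, DUSP5 and SERPINH1 (lower row) in the 3 siCtrl (blue) and 3 siEIF3G (red) input libraries, each panel on its own linear axis from 0, with group means and SDs as bars (n = 3). In all 8 panels the 2 groups are separate, for example 113 to 80.6 against 26.6 to 19.8 TPM for THOP1.

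Genes of the growth factor response stood at the top of the higher genes. EGR1, a zinc finger transcription factor induced within minutes of mitogen or stress signals, was at 1.98, 5.31 and 6.38 TPM in siCtrl and at 23.8, 17.5 and 47.5 TPM in siEIF3G libraries. The lowest knockdown library was above the highest control library, and the means were 6.49-fold apart (log2 difference 2.44, SE 0.52, limma adjusted p = 0.687). With size factors the difference was 2.41 (limma adjusted p = 0.0262), and with quantile normalization 2.78 (limma adjusted p = 0.00879). IER2, another immediate early gene, was at 112, 141 and 132 TPM in siCtrl and at 202, 277 and 285 TPM in siEIF3G libraries, 1.98-fold higher (0.97, SE 0.23, limma adjusted p = 0.969).

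The list of immediate early genes had 25 tested members. Of these 18 had a positive difference (42.2% of all tested genes did) and 5 had groups that did not overlap (1.82% of all tested genes were higher in this way), all 5 higher: EGR1, FOS, IER2, IER3 and JUNB, of which IER3 was named after its values were seen. None but EGR1 passed under any alternative, and EGR1 only under the 2 given above. FOS, the AP-1 subunit, was low at 1.39, 3.37 and 2.82 TPM in siCtrl and 5.55, 6.93 and 8 TPM in siEIF3G libraries (1.18, SE 0.36). JUNB, its partner, was at 33.6, 46.9 and 46.2 against 58.9, 89.2 and 80.4 TPM (0.83, SE 0.29). The groups overlapped for JUN (0.89, SE 0.53), for FOSL1 (0.48, SE 0.22), the most abundant AP-1 gene of the list at 357 ± 30.6 against 511 ± 141 TPM (SD, n = 3 libraries each), and for MYC (0.68, SE 0.52).

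The median of the list was 0.28, or 0.34 relative to all genes, and 0.33 relative to all genes without the 2 libraries that stood apart. Per library and relative to all genes it was 0.13, -0.03 and -0.07 in siCtrl and 0.25, 0.58 and 0.61 in siEIF3G, so the groups were separate. Each input library left out in turn gave relative medians from 0.35 to 0.60.

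Phosphatases and feedback inhibitors that ERK signalling induces and that shut it off again, listed with a few of its other outputs, were likewise positive in most members. Of 16 tested, 12 were positive and 4 did not overlap, all higher: DUSP1, DUSP2, DUSP5 and SPRED3, with DUSP1 named after its values were seen. Over all tested genes 1.82% were higher in this way. DUSP5, the nuclear ERK phosphatase, was at 10.2, 22.7 and 24.7 TPM in siCtrl and at 34.7, 41.5 and 69.5 TPM in siEIF3G libraries (1.32, SE 0.37, limma adjusted p = 1.00). DUSP2 was low, at 3.63 ± 0.859 against 7.61 ± 1.37 TPM (SD, n = 3 libraries each; 0.90, SE 0.35). DUSP1 differed by 0.69 (SE 0.33) and SPRED3 by 0.71 (SE 0.38). ETV4, 1 of the 4 negative members, was at 81.5 ± 13.9 against 71.8 ± 9.07 TPM (-0.17, SE 0.23). Without the 2 libraries that stood apart, 11 of the 16 were positive. SPRY4, a receptor tyrosine kinase inhibitor, ranged over 8.42, 27.2 and 41.2 TPM in siCtrl and 42.5, 26.0 and 69.1 TPM in siEIF3G libraries, so its groups overlapped. The list's median relative to all genes was 0.38 (0.25 without siEIF3G 3), and per library it was -0.08, 0.05 and -0.01 in siCtrl and 0.17, 0.45 and 0.73 in siEIF3G.

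The EGR1 promoter is printed because EGR1 had the largest positive difference and because serum response elements are known to drive it. It covers 250 bases before to 50 after the start site, from RefSeq in the build GRCh38.p14, chr5:138465229-138465528 on the plus strand. The capitals mark matches to the CArG box, the site bound by serum response factor.
EGR1: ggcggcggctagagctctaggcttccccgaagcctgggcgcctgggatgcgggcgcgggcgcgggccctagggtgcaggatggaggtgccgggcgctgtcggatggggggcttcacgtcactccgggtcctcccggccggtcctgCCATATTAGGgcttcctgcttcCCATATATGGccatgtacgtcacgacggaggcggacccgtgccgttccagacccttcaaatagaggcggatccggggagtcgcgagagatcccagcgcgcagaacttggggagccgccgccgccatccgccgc
The CArG box was searched on both strands in the RefSeq promoters of list members. It was found in 2 of 18 promoters of immediate early genes (11.1%; EGR1 and SRF) and in 1.11% of the 12797 promoters of genes in the table. The cyclic AMP response element TGACGTCA, also searched on both strands, was in 1 of the 18 (JUND) and in 2.98% of all. These matches describe the letters in the window and show no binding.

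Targets of NF-kB and cytokines were measurable for 14 of 28 listed genes. Of these 12 were positive and 4 did not overlap, all higher: CCL2, NFKB2, RELB and TRAF1, with TRAF1 named after its values were seen. The share over all tested genes was 1.82%. RELB, a subunit of non-canonical NF-kB, was at 45.7, 46.5 and 39.2 TPM in siCtrl and at 56.5, 75.4 and 56.1 TPM in siEIF3G libraries (0.50, SE 0.26). NFKB2, its partner, differed by 0.48 (SE 0.36), with the groups just apart at 62.2 TPM for the highest control and 63.3 TPM for the lowest knockdown library. The chemokine gene CCL2 was near the lower limit, at 1.33 ± 0.422 against 3.34 ± 0.960 TPM (SD, n = 3 libraries each). CXCL2, the most abundant member, was at 564 ± 87.9 against 726 ± 163 TPM, with overlap. Per library the list was at 0.45, -0.03 and -0.45 relative to all genes in siCtrl and at 0.18, 0.69 and 0.41 in siEIF3G, so siCtrl 1 lay among the knockdown libraries. The relative median of the list was 0.43, and 0.27 without siEIF3G 2.

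The other genes at the top of the higher group had various roles. SERPINH1, a chaperone of collagen, was at 29.7 ± 7.27 against 63.7 ± 11.2 TPM (SD, n = 3 libraries each). Without the 2 libraries that stood apart, the difference of 1.09 (SE 0.38) became 0.74. Its lowest control library was siCtrl 1.

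ANGPTL4, an inhibitor of lipoprotein lipase, was at 39.7 ± 2.63 against 64.4 ± 10.7 TPM. The adrenergic receptor gene ADRA2C was at 17.9 ± 1.07 against 34.5 ± 5.22 TPM, and the actin-binding protein gene DBN1 (drebrin) at 45.3 ± 2.04 against 74.97 ± 12.4 TPM (SD, n = 3 libraries each). SGF29, which reads histone methylation for the SAGA complex, had narrow controls, at 8.49, 8.74 and 8.88 TPM, against 13.8, 17.2 and 17.6 TPM. The malonyl-CoA synthetase gene ACSF3 differed by 0.74 (SE 0.28). DPH1, an enzyme of the diphthamide modification of EEF2, differed by 0.79 (SE 0.31). FAM86B2 differed by 1.05 (SE 0.41), and it has near-identical copies among which reads can be split, so its value is uncertain. Of the 15 higher genes 3 are on chromosome 19.

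**Figure D4:**
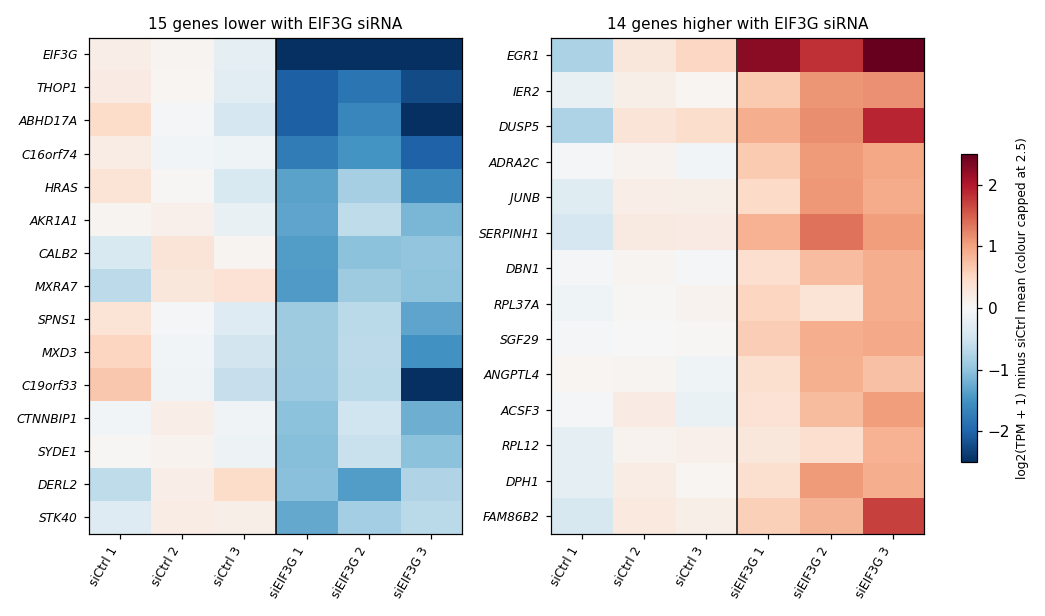
Rows are the genes described here from the 15 of smallest p on either side among those with a mean of at least 5 TPM and groups that do not overlap (left, lower; right, higher), and columns are the 6 input libraries, siCtrl left of the line. Colour is log2(TPM + 1) minus the siCtrl mean, capped at 2.5; these genes were picked for their separation, and the heat map shows how much each knockdown library contributes, with EGR1 and DUSP5 darkest in siEIF3G 3 and SERPINH1 darkest in siEIF3G 2.

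The integrated stress response was uneven between the knockdown libraries. ATF4 is the transcription factor that is translated when initiation is limited by eIF2 phosphorylation, and its targets serve amino acid supply and stress. Of 36 listed targets 32 were tested. Of these 26 were positive and 1, SESN2, was higher without overlap, beside 1.82% of all tested genes. Relative to all genes the list's median was 0.50. Per library it was 0.34, -0.04 and -0.32 in siCtrl and -0.24, 0.45 and 1.27 in siEIF3G, so siEIF3G 3 stood far above every other library and siEIF3G 1 lay among the controls. Without siEIF3G 3 the median relative to all genes was 0.076, and without siEIF3G 1 it was 0.79.

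Single targets were also highest in siEIF3G 3. DDIT3, the stress transcription factor CHOP, was at 14.9, 36.7 and 44.5 TPM in siCtrl and at 56.6, 40.5 and 229 TPM in siEIF3G libraries (1.45, SE 0.64). SESN2, an inhibitor of mTORC1, was at 9.88, 12.5 and 11.7 TPM against 14.01, 17.7 and 86.3 TPM (1.24, SE 0.55). TRIB3, a pseudokinase that restrains the response, was at 57.1, 50.6 and 39.9 TPM against 38.6, 61.8 and 353 TPM (0.95, SE 0.75). In all of these the value of siEIF3G 3 was several times that of the other knockdown libraries. ATF4 mRNA itself was at 176, 278 and 288 TPM in siCtrl and 265, 279 and 579 TPM in siEIF3G (0.53, SE 0.42), and the amino acid transporter subunit gene SLC3A2 at 99.2, 130 and 113 TPM against 116, 177 and 341 TPM (0.75, SE 0.36).

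ASNS, asparagine synthetase, is shown because its promoter holds a known ATF4 element and its level differed widely between the knockdown libraries. It was chosen after its values were seen. Its level was 26.5, 65.3 and 80.9 TPM in siCtrl and 39.2, 29.6 and 396 TPM in siEIF3G libraries. The difference of 0.57 (SE 0.99) became -0.60 without siEIF3G 3. The promoter, from RefSeq in GRCh38.p14, chr7:97872359-97872658, is on the minus strand, with capitals for the match.
ASNS: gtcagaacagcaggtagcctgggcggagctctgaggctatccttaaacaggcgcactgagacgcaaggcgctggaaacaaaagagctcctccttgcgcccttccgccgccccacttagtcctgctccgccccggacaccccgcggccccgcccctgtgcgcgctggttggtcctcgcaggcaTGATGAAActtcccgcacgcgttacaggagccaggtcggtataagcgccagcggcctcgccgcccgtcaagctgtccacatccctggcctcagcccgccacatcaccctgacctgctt
The letters searched were TGATGNAA, on both strands. They were in 6 of 29 promoters of ATF4 targets (20.7%: ASNS, ATF3, CARS1, CHAC1, SLC3A2 and SLC7A1) and in 1.94% of all 12797 promoters. All 133 tested genes with the match had a median difference of -0.09, and the 6 targets one of 0.55.

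Cytosolic aminoacyl-tRNA synthetases, which charge tRNAs and many of which are ATF4 targets, were likewise highest in siEIF3G 3. Of 23 tested, 19 were positive and 1, VARS1, was higher without overlap, beside 1.82% of all tested genes. AARS1, the alanyl enzyme, was at 24.3, 64.8 and 85.9 TPM in siCtrl and at 67.9, 44.7 and 260 TPM in siEIF3G libraries (0.84, SE 0.70). MARS1 (0.66, SE 0.59), WARS1 (0.70, SE 0.64) and CARS1 (0.68, SE 0.67) had their highest value in siEIF3G 3 as well. VARS1 differed by 0.46 (SE 0.28), at 153 ± 18.03 against 212 ± 36.2 TPM (SD, n = 3 libraries each). Relative to all genes the list was at -0.24, 0.09 and 0.14 in siCtrl and at 0.25, -0.08 and 0.93 in siEIF3G. Its relative median was 0.37, 0.13 without siEIF3G 3 and 0.60 without siEIF3G 2.

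The other subunits of eIF3 were mostly positive beside EIF3G. All 12 were tested, 10 were positive, none had groups that did not overlap, and the differences ran from -0.14 to 0.54. The largest were EIF3D, a cap-binding subunit, at 50.2, 143 and 182 TPM in siCtrl and 148, 102 and 270 TPM in siEIF3G (0.54, SE 0.59), EIF3C (0.53, SE 0.57) and EIF3L (0.52, SE 0.55). EIF3C has a near-identical copy, EIF3CL, so its value is uncertain. All 3 came out slightly negative without siCtrl 1, in which they were lowest. Each of the 12 subunits turned sign when some single input library was left out. Relative to all genes the list's median was 0.22, 0.31 without the 2 libraries that stood apart, and 0.47 without siEIF3G 2.

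Of 30 other initiation factors 18 were positive, the relative median was 0.15 and none was without overlap. EIF1, which guards start codon choice, was at 111, 182 and 209 TPM in siCtrl and 179, 192 and 442 TPM in siEIF3G (0.61, SE 0.40). The cap-binding factor EIF4E (-0.58, SE 0.55) and its relative EIF4E2 (-0.49, SE 0.33) were on the other side. Without siCtrl 1 the list's median relative to all genes was -0.078, and without siEIF3G 2 it was 0.30.

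Elongation and termination factors had 9 positive members of 14. EEF2, the translocase, was at 1763, 2509 and 2251 TPM in siCtrl and 2491, 3689 and 4493 TPM in siEIF3G (0.68, SE 0.28), so siEIF3G 1 lay just below the highest control. EIF5A2, the less abundant eIF5A gene, was at 5.13 ± 3.10 against 2.08 ± 1.19 TPM (SD, n = 3 libraries each; -0.94, SE 0.44).

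Ribosomal protein mRNAs took 36.4%, 30.2% and 28.5% of the siCtrl libraries and 39.3%, 37.0% and 33.8% of the siEIF3G libraries. The groups overlapped by siCtrl 1 alone, which lay above siEIF3G 3. Of 84 tested genes 73 were positive and 13 had groups that did not overlap, all higher, beside 1.82% of all genes. Their median was 0.34 relative to all genes and 0.52 without the 2 libraries that stood apart, but 0.064 without siCtrl 3 and 0.62 without siCtrl 1. RPL12, a protein of the ribosomal stalk base, was at 2991, 3739 and 3821 TPM in siCtrl and at 4266, 4696 and 6353 TPM in siEIF3G (0.52, SE 0.20). RPL37A was at 448, 497 and 515 TPM against 704, 612 and 915 TPM (0.59, SE 0.22). RPL21 was at 1504, 1637 and 2054 TPM against 3986, 1561 and 2906 TPM, and RPL22L1 at 69.5, 46.6 and 54.3 TPM against 115, 59.3 and 84.6 TPM, both with overlap. Ribosomal protein genes have many processed copies in the genome, so single values can be affected by how reads were split. Per library and relative to all genes, the list was at 0.80, -0.21 and -0.56 in siCtrl and at 0.16, 0.56 and 0.17 in siEIF3G, so its spread within siCtrl was larger than the difference between the groups.

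Ribosome biogenesis factors, the nucleolar proteins that process rRNA, had 47 positive members of 55 and none without overlap. UTP4, of the small subunit processome, was at 38.7 ± 20.4 against 65.2 ± 35.5 TPM (0.77, SE 0.52). NOB1, the nuclease of 18S maturation, differed by 0.67 (SE 0.40), and the rRNA methyltransferase gene NOP2 by 0.58 (SE 0.58). The median relative to all genes was 0.23 with all libraries, -0.012 without siCtrl 1 and 0.56 without siEIF3G 2.

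**Figure D5:**
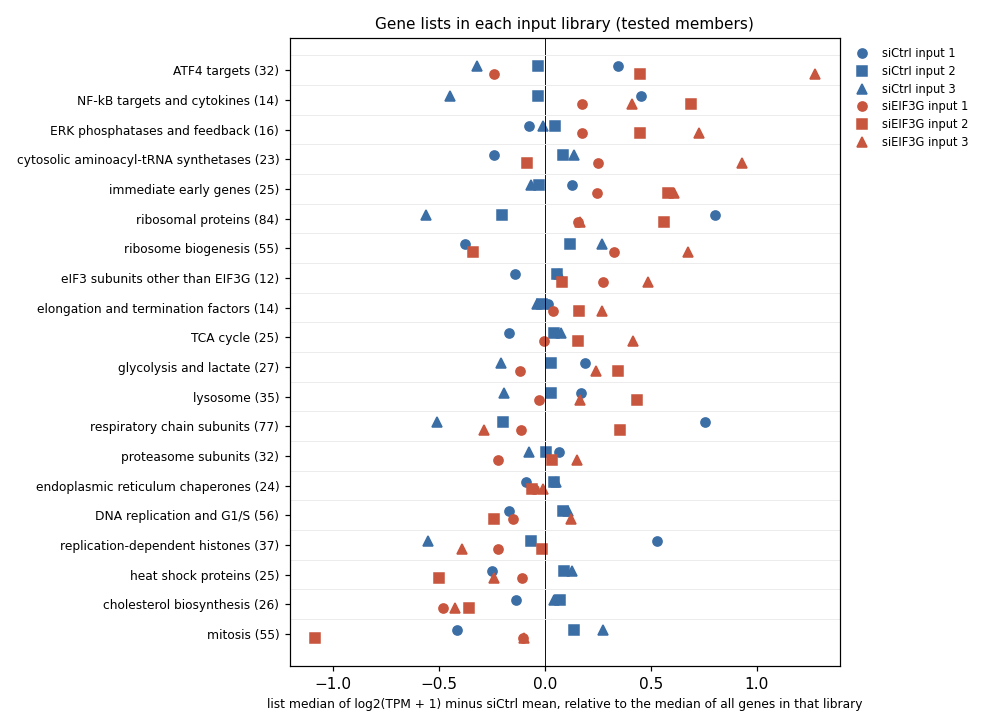
For 20 gene lists (tested members in brackets) the horizontal axis gives the list's median of log2(TPM + 1) minus the siCtrl mean, relative to the median of all genes in the same library, with 1 point for each of the 6 input libraries. Cholesterol biosynthesis lies between -0.48 and -0.36 in the red siEIF3G libraries and between -0.14 and 0.07 in the blue siCtrl ones, while ATF4 targets reach 1.27 in siEIF3G 3 alone and mitosis reaches -1.09 in siEIF3G 2.

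The median of the cholesterol biosynthesis genes, relative to all genes, was lower in each knockdown library than in any control library, while most single members overlapped. This pathway turns acetyl-CoA into cholesterol through HMG-CoA and isoprenoids, and SREBF2 controls its transcription. Of 26 tested genes 23 were negative and 3 did not overlap, all lower: MVK, EBP and DHCR7, named after their values were seen. Over all tested genes 1.74% were lower in this way. The median relative to all genes was -0.38, and -0.42 without the 2 libraries that stood apart, where none of the 26 was positive. Per library it was -0.14, 0.07 and 0.04 in siCtrl and -0.48, -0.36 and -0.42 in siEIF3G, and each input library left out in turn gave -0.43 to -0.34.

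Mevalonate kinase (MVK) was at 23.2, 24.6 and 19.3 TPM in siCtrl and at 11.3, 19.1 and 12.5 TPM in siEIF3G libraries (-0.64, SE 0.31). The sterol isomerase gene EBP was at 80.9, 87.3 and 79.9 TPM against 50.2, 69.9 and 63.7 TPM (-0.44, SE 0.22). DHCR7, which makes cholesterol in the last step, differed by -0.32 (SE 0.30). The MVK groups were just apart, with siEIF3G 2 at 19.1 TPM and the lowest control library at 19.3 TPM. Other members spread widely with the 2 libraries that stood apart. IDI1, isopentenyl diphosphate isomerase, was at 19.6, 68.7 and 105 TPM in siCtrl and 36.7, 10.6 and 25.3 TPM in siEIF3G (-1.24, SE 0.57). HMGCS1, which makes HMG-CoA, overlapped (-0.75, SE 0.75), as did the farnesyl diphosphate synthase gene FDPS (-0.44, SE 0.30) and the decarboxylase gene MVD (-0.72, SE 0.28). The sterol element TCACNCCAC, searched on both strands, was in 1 of 20 promoters of the list (SREBF2) and in 1.13% of all.

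Fatty acid synthesis had 17 negative members of 19 and a relative median of -0.12, which was -0.34 without siCtrl 1 and -0.038 without siEIF3G 2. SREBF1, the factor that controls it, was at 101, 109 and 105 TPM in siCtrl and 75.6, 93.5 and 85.7 TPM in siEIF3G (-0.31, SE 0.31). It was the only member without overlap, beside 1.74% of all tested genes that were lower in this way, and it was named after its values were seen. AGPAT2, an acyltransferase of phosphatidic acid synthesis, was at 233, 139 and 111 TPM against 99.6, 124 and 41.1 TPM (-0.93, SE 0.38). For this gene siCtrl 1 and siEIF3G 2 were the highest of their groups.

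Heat shock proteins had 22 negative members of 25 and none without overlap. HSPA1A, the inducible HSP70, was at 58.9, 172 and 213 TPM in siCtrl and at 63.0, 63.1 and 41.6 TPM in siEIF3G libraries (-1.22, SE 0.59), so siCtrl 1 alone lay among the knockdown libraries. Its near-identical neighbour HSPA1B (-1.13, SE 0.57) shares reads with it, and these are not 2 independent values. Without the 2 libraries that stood apart the difference of HSPA1A was -1.88. The mitochondrial co-chaperonin gene HSPE1 was at 2244, 1677 and 2111 TPM against 2045, 911 and 930 TPM (-0.73, SE 0.33). HSP90AA1 ranged from 455 to 2318 TPM in siCtrl and from 212 to 1236 TPM in siEIF3G, and HSPA2 differed by -0.89 (SE 0.44). The list's median relative to all genes was -0.22, -0.26 without the 2 libraries, -0.38 without siCtrl 1 and -0.16 without siCtrl 3. Per library it was -0.25, 0.09 and 0.13 in siCtrl and -0.11, -0.50 and -0.24 in siEIF3G, so siCtrl 1 lay among the knockdown libraries. The heat shock element, in both orientations, was in 4 of 21 promoters of the list (19.05%) and in 0.359% of all.

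Chaperones of the endoplasmic reticulum had a relative median of -0.07 (-0.23 without siCtrl 1 and 0.036 without siEIF3G 2), 15 negative members of 24, and none without overlap. SDF2L1, a partner of BiP, was at 347, 224 and 176 TPM in siCtrl and 145, 192 and 84.9 TPM in siEIF3G (-0.84, SE 0.31). EDEM1, of glycoprotein degradation, differed by -0.79 (SE 0.34) at 3.39 TPM or less, and MANF by -0.58 (SE 0.32).

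Mitosis genes were lower in the means, with 50 of 55 tested members negative and 1, SPC24, without overlap. Over all tested genes 1.74% were lower in this way, and 1 of 55 is near that share. SPC24, of the kinetochore NDC80 complex, was at 95.8, 81.8 and 64.7 TPM in siCtrl and at 38.3, 63.1 and 40.3 TPM in siEIF3G (-0.78, SE 0.30), named after its values were seen. Relative to all genes the list was at -0.41, 0.14 and 0.27 in siCtrl and at -0.11, -1.09 and -0.10 in siEIF3G. The 2 libraries that stood apart were thus the lowest of their groups. MKI67, a marker of cycling cells, shows it: 2, 15.2 and 25.4 TPM in siCtrl and 12.01, 1.35 and 4.22 TPM in siEIF3G (-1.004, SE 0.76). CENPF (-1.05, SE 0.83), ASPM (-0.95, SE 0.54) and KIF18A (-0.99, SE 0.59), of kinetochore and spindle, had the same order of libraries. The median relative to all genes was -0.42, -0.33 without both libraries, and -0.15 without siEIF3G 2.

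DNA replication and G1/S genes had a relative median of -0.01 (-0.18 without siCtrl 1), with 38 of 56 negative. CCNE2 (-0.84, SE 0.59) and E2F7 (-0.77, SE 0.54), both E2F targets, were the most negative, and the polymerase subunit gene POLD1 (0.24, SE 0.31; named after its values were seen) was the only one without overlap. That is 1 of 56 genes, beside 1.82% of all tested genes that were higher in this way.

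Among replication-dependent histone genes 27 of 37 were negative and 6 did not overlap, beside 1.74% lower and 1.82% higher of all tested genes. Lower were H4C2, H3C7, H2AC14, H3C12 and H4C3, the last 2 named after their values were seen, and H1-2 was higher (0.47, SE 0.26; named in the same way). H4C2 was at 2.17, 3.65 and 3.91 TPM in siCtrl and at 0.96, 0 and 0 TPM in siEIF3G (-1.74, SE 0.34, limma adjusted p = 0.391). H3C7 was at 7.93, 4.61 and 4.70 TPM against 2.13, 1.80 and 1.14 TPM (-1.31, SE 0.36). H2AC14 was at 6.24, 5.13 and 5.59 TPM against 1.70, 3.05 and 0 TPM (-1.58, SE 0.53). These levels are low, the genes have close copies, and most histone mRNAs lack the poly(A) tail by which the libraries were enriched, so the values are uncertain. The more abundant H4C11 was at 153, 58.4 and 42.4 TPM against 44.9, 111 and 6 TPM, with overlap.

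Cell cycle inhibitors and DNA damage response genes had 17 negative members of 26 and a relative median of -0.10, which was -0.011 without siCtrl 1. Higher without overlap were 2 members, SESN2 among them, beside 1.82% of all tested genes. BAX, which permeabilises mitochondria, was at 249, 212 and 178 TPM in siCtrl and 142, 177 and 141 TPM in siEIF3G (-0.47, SE 0.24), lower without overlap by less than 1 TPM. CDKN2D, a CDK4 and CDK6 inhibitor, was at 38.2 ± 8.47 against 22.8 ± 6.21 TPM. In the BCL2 family, with 11 of 16 members negative, BAX and BID (-0.46, SE 0.29) were lower without overlap, and BAD differed by -0.43 (SE 0.37). The share of all tested genes that were lower without overlap was 1.74%.

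Genes of energy metabolism lay on both sides. Glycolysis genes were positive in 19 of 27 (relative median 0.19, but 0.010 without siEIF3G 2 and 0.32 without siEIF3G 1), yet LDHA was at 113, 345 and 489 TPM in siCtrl and 178, 88.6 and 239 TPM in siEIF3G (-0.77, SE 0.50). The lactate exporter gene SLC16A3 was at 226, 215 and 178 TPM against 151, 172 and 117 TPM (-0.50, SE 0.25), lower without overlap, while the glucose transporter gene SLC2A3 differed by 0.69 (SE 0.51). Of the glycolysis list SLC16A3 alone was without overlap, beside 1.74% of all tested genes. TCA cycle genes had 17 positive members of 25 and none without overlap.

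Respiratory chain subunits had a relative median of -0.02 (-0.20 without siEIF3G 2 and 0.29 without siCtrl 1), with 45 of 77 negative. ATP5ME (-0.21, SE 0.19) and NDUFS6 (-0.24, SE 0.18), named after their values were seen, were lower without overlap. These are 2 of 77 genes, beside 1.74% of all tested genes that were lower in this way. Among abundant complex I genes, NDUFB7 at 5355, 2585 and 1950 TPM in siCtrl and 2103, 2794 and 1011 TPM in siEIF3G (-0.73, SE 0.40), NDUFA11 (-0.43, SE 0.39) and NDUFA13 (-0.50, SE 0.35), overlapped. The list as a whole was at 0.75 relative to all genes in siCtrl 1 and at -0.20 and -0.51 in the other controls.

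Redox genes controlled by NRF2 had 14 positive members of 24. HMOX1, heme oxygenase, was at 29.3, 40.5 and 40.9 TPM in siCtrl and 37.2, 55.1 and 134 TPM in siEIF3G (0.82, SE 0.38), again highest in siEIF3G 3. SQSTM1, the autophagy receptor p62, was at 413, 580.5 and 529 TPM against 565, 887 and 1024 TPM (0.67, SE 0.35). Autophagy genes as a list had 11 positive members of 30 and none without overlap. Lysosome genes had 19 of 35 positive and 4 without overlap, all higher, beside 1.82% of all tested genes. These were the hydrolases GAA (14.3 ± 0.516 against 21.1 ± 2.52 TPM), SGSH (10.4 ± 0.7499 against 16.7 ± 2.80 TPM) and MAN2B1 (0.36, SE 0.31) and the proton pump subunit gene ATP6AP1 (0.36, SE 0.40), the last 2 named after their values were seen. In the mTOR list 22 of 31 were negative, with SESN2 alone without overlap, beside 1.82% of all tested genes that were higher in this way. LAMTOR4 of the Ragulator complex was at 4456, 2157 and 1646 TPM in siCtrl and 1406, 2413 and 788 TPM in siEIF3G (-0.85, SE 0.40).

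Cytoskeleton genes were evenly split, with 16 of 34 positive. Without overlap were 2 lower and 1 higher, beside 1.74% and 1.82% of all tested genes. The tubulin genes TUBB3 and TUBB4B were lower without overlap: TUBB4B was at 705, 805 and 678 TPM in siCtrl and 347, 517 and 519 TPM in siEIF3G (-0.68, SE 0.33), and TUBB3 was at 369 ± 28.6 against 252 ± 52.95 TPM (SD, n = 3 libraries each). Tubulin genes are similar in sequence, so reads may be split between them. ZYX, zyxin of focal adhesions, was higher without overlap at 135, 173 and 157 TPM against 180, 232 and 332 TPM (0.64, SE 0.27). Extracellular matrix and integrin genes had 15 positive members of 21 and 3 without overlap, all higher, beside 1.82% of all tested genes. Among these 3 were the laminin gene LAMB2 (0.55, SE 0.33) and COL18A1 (0.36, SE 0.37, named after its values were seen). The integrin genes ITGAV (-0.84, SE 0.64) and ITGA6 (-0.83, SE 0.76) were negative with overlap.

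Targets of YAP and TEAD were balanced, with 9 of 19 positive and 1 lower without overlap, beside 1.74% of all tested genes. The known target ANKRD1 was lower without overlap (-1.19, SE 0.36). It was at 1.22, 2.90 and 4.48 TPM in siCtrl and at 0.78, 0.26 and 0.77 TPM in siEIF3G. AMOTL1, also low at a mean of 2.60 TPM, differed by -0.54 (SE 0.44). More abundant members had higher means in siEIF3G, with overlap. AMOTL2 was at 37.5 ± 20.4 against 53.8 ± 21.2 TPM (SD, n = 3 libraries each; 0.62, SE 0.46). CCN1 was at 208 ± 121 against 282 ± 165 TPM, and AXL at 98.9 ± 52.5 against 112 ± 8.42 TPM. The differences of CCN1 and AXL turned sign when some single input library was left out. Wnt and Notch targets were positive in 12 of 15, and the Notch target HES1 was higher without overlap (10.5 ± 5.09 against 18.2 ± 3.19 TPM). TGF-beta targets had 8 of 15 positive and 1 higher without overlap. For both lists the share over all tested genes was 1.82%. Mesenchymal markers had 6 of 11 and epithelial markers 3 of 7 positive, with none without overlap in either list.

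Interferon-stimulated genes were measurable for 19 of 34 listed, with 7 positive and none without overlap. ISG15, the ubiquitin-like modifier, was at 362, 201 and 144 TPM in siCtrl and 157, 204 and 49.8 TPM in siEIF3G (-0.90, SE 0.45). Genes of MHC class I and antigen presentation had 6 of 15 positive. The peptide transporter gene TAP2 (0.51, SE 0.36, named after its values were seen) was higher without overlap, beside 1.82% of all tested genes. Genes of mRNA decay had 19 positive members of 44, with CNOT6 (-1.01, SE 0.62), DCP2 (-0.79, SE 0.49) and LSM7 (-0.61, SE 0.26) among the most negative, and the siRNA machinery 4 of 13, both lists with none without overlap. Proteasome subunits had 9 of 32 positive (PSMB3 -0.35, SE 0.20), splicing factors 14 of 34, growth factors and receptor ligands 7 of 14, and housekeeping genes 13 of 25, none of them without overlap. In the housekeeping list the transferrin receptor gene TFRC differed by -0.78 (SE 0.68). Hypoxia-induced genes had 12 of 21 positive, with ANGPTL4 alone higher without overlap, beside 1.82% of all tested genes.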

How the data were processed

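The authors deposited 1 table of TPM per gene and library for 12 libraries of polyadenylated RNA from H1299 cells. RSEM 1.3.1 and the build GRCh38.p13 are named in the submitters' processing notes. For the aligner, "not given in the sources used here" applies. The total of each library is 1000000 within 0.54, so TPM are shares and keep no read depth.

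Genes that averaged 1 TPM or more in the 6 input libraries were kept, and 5124 were set aside. Values were transformed as log2(TPM + 1), and 4 group means were fitted over the 12 libraries with limma 3.58.1 (R 4.3.3; mean-variance trend, 8 residual degrees of freedom), two-sided, adjusted by Benjamini-Hochberg. The fit was checked on simulated data with independent noise, a smaller spread than seen here and no libraries that stood apart. That check does not show how well the fit detects changes in these libraries. Tables and plots were made with Python 3.11.15 and pandas 2.3.3. The 6 libraries, the 45 gene lists and the tests were chosen with earlier results of these data known. Lists are described by counts and medians with no test. Genes were named by rule: EIF3G and 5 neighbours on each side, called genes, the 15 smallest p in each direction (mean of at least 5 TPM, no overlap), and of each list the 4 largest differences and the 2 highest levels, or any member of lists of up to 12; exceptions are marked, and some genes that the rule names are not reported here. Promoters came from RefSeq for 12797 of 16172 symbols. Alternatives covered the pseudocount (0.1 or 5), filter, scaling, trend, robust moderation, libraries fitted, replicate block and each library left out.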

Additional observations from a re-analysis of the deposited data

How the results depend on the processing

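TPM keep no counts, so depth sets no interval here, and 3 libraries a group limit what can be called. The count of called genes, 2 lower and 0 higher, was 0 lower and 1 higher with size factors and 1 lower and 1 higher with quantile normalization; it was 1 lower with a total without ribosomal protein genes, without the mean-variance trend, with only the input libraries and without the 2 libraries that stood apart, and 1 to 2 lower with single libraries left out. EIF3G kept its direction under all 25 alternatives (-4.25 to -3.83) and did not pass with size factors (-3.98, limma adjusted p = 0.0668). Genes higher without overlap (201) numbered 420 with size factors, 468 with quantile normalization, 478 with a total without ribosomal protein genes, 431 without both libraries, and 201 to 668 with single libraries left out. Genes lower without overlap (192) numbered 357 with no filter, 127 at a mean of at least 5 TPM, 109 with the total without ribosomal protein genes, 3187 without both libraries and 192 to 2441 with single libraries left out, the last without siCtrl 1; fewer libraries make separation easier. The median of all genes ran from -0.40 to 0.21 with single libraries left out. Of the genes named with a difference, 8 turned sign with a single library left out: DNMT1 (-0.66 to 0.53), MRPL4 (-0.19 to 0.16), S1PR2 (-0.10 to 0.15), SHFL (-0.062 to 0.091), EIF3C (-0.045 to 0.89), EIF3D (-0.011 to 0.91), EIF3L (-0.070 to 0.96) and ASNS (-0.60 to 1.25). This count leaves out genes whose difference is not printed here. Many of those turned sign too, among them the remaining eIF3 subunits. Without both libraries that stood apart, DNMT1 was at -0.22, MRPL4 at -0.046, S1PR2 at -0.21 and SHFL at -0.067. The cause of these changes was not tested.

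Deviations of same-numbered input libraries from their group means correlated at -0.64, -0.68 and 0.70 across genes, while siCtrl 1 and siEIF3G 2 correlated at 0.91. These 2 libraries and siCtrl 3 lay furthest from 0 on the first axis, which dominates the deviations. The correlations therefore cannot show whether libraries of the same number were handled together. With the replicate block over 12 libraries, 2 genes were called lower, and EIF3G was at -4.03. With the replicate block and only the input libraries, 0 genes were called lower, and EIF3G was at -4.03 (limma adjusted p = 0.277).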

Other observations

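CDKN1A, the p21 gene, was at 89.8, 104 and 78.4 TPM in the siCtrl and at 59.7, 93.0 and 94.5 TPM in the siEIF3G input libraries, with overlap. CDKN2A, which encodes p16 among its products, had a mean of 305 TPM, a level per gene that does not separate its transcripts.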
